A study of Homo sapiens with 9 samples.

Results

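G2 and mitosis genes were described in HaCaT cells, an immortalized human keratinocyte line, from RNA-seq counts of 9 libraries. The set holds 40 genes taken from a list of factors of the G2 phase and of mitosis, out of 78899 gene IDs in the count files. All 40 were found by symbol and all 40 passed the filter on low counts, which left 16921 genes tested. The rule names the genes and uses no expression value, but the list was drawn up with earlier results of these data known.

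BD and NBD are subpopulations of the line defined by fluorescence-activated sorting, with 3 libraries each, and control is the cell line itself, with 3 libraries. Comparisons with control thus set sorted cells against the line itself, and subpopulation and sorting cannot be told apart in them. What the names BD and NBD stand for is not stated in the labels, and they are kept as given. The labels place all 9 libraries in a high-glucose, low-calcium medium with serum and name no treatment. The study's stated interest was in transcriptional differences tied to progenitor-like states of keratinocytes. As background, HaCaT is a single line that cycles continuously, so its cells are not normal epidermal progenitors. BD libraries held 27678024, 25754757 and 28948743 counts, NBD libraries 26345128, 25862752 and 29512856, and control libraries 18054999, 17128797 and 25782938. Whether replicates are separate cultures is not stated, so the p-values measure the spread between these libraries, which may be technical.

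A dividing cell makes most of these RNAs late in its cycle. Cyclins A and B switch on CDK1, which drives entry into mitosis, and kinases, motors and kinetochore proteins then build the spindle and attach the chromosomes. The spindle checkpoint holds the anaphase-promoting complex in check until every chromosome is attached, and the cell then divides by cytokinesis. Many of these genes share a promoter design, with CCAAT boxes bound by NF-Y and a cell cycle genes homology region (CHR), through which the DREAM complex represses them in resting cells and B-MYB and FOXM1 activate them in G2. In basal keratinocytes, the set marks cells that are proliferating.

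Promoter windows are shown here because the set is known as one transcriptional programme. RefSeq promoter windows (GRCh38.p14, 250 bases before to 50 bases after the first listed start) were found for 35 of the 40 members, and no window was matched for AURKA, TTK, TPX2, BIRC5 and UBE2C. The CHR was searched as TTTGAA and the CCAAT box as CCAAT, both on either strand. The CHR letters were in 25 of 35 windows, 71.4% (95% Wilson interval 54.9 to 83.7%), against 9.97% of 10264 windows of protein-coding genes that were tested and 15.4% of all 27305 windows. The CCAAT letters were in 77.1% of member windows, against 37.3% and 35.7%. Both were in 60% of member windows, against 4.30% and 6.08%. In a narrower window from 100 bases before the start, the CHR letters were in 62.9% of member windows, against 4.00% and 6.91%. In members the median first base of a match lay at -27 for the CHR and at -79 for the CCAAT box, counted from the start. Of other mitosis genes, 36.6% of 123 windows held the CHR letters, and of S phase genes 6.82% of 44 did. The intervals cover counting error only, and a match is a match of letters, not a measured site.

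Windows of 6 members that hold both motifs follow, 5′ to 3′ on the strand of the gene, with matches to either motif on either strand in capitals. In the MKI67 window the second CHR match runs into a reverse CCAAT match.
NUSAP1, chr15:41332631-41332930, plus strand: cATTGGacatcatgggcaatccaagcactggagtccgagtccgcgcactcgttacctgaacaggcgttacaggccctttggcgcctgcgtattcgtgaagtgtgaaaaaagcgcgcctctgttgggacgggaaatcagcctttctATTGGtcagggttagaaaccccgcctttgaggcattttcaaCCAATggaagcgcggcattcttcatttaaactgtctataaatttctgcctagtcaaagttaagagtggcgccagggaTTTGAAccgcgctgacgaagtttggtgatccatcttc
MKI67, chr10:128126374-128126673, minus strand: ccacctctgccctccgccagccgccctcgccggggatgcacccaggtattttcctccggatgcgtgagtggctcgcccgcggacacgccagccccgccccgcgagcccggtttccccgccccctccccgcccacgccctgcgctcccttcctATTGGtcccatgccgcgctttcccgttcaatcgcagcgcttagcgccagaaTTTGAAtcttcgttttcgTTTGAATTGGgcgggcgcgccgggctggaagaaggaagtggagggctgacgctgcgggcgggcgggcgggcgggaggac
CENPF, chr1:214602945-214603244, plus strand: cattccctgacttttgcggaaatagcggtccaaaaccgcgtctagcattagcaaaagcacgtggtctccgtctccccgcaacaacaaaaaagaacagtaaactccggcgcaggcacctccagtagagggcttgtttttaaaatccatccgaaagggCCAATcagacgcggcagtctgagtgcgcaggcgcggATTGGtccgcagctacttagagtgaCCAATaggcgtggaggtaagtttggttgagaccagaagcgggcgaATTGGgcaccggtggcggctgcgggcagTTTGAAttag
KIF14, chr1:200620702-200621001, minus strand: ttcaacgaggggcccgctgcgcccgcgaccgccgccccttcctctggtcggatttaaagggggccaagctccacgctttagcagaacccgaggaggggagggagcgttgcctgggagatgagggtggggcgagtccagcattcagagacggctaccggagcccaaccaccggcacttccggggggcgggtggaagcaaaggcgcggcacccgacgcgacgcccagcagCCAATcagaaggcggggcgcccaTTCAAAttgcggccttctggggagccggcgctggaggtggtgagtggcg
KIF23, chr15:69414099-69414398, plus strand: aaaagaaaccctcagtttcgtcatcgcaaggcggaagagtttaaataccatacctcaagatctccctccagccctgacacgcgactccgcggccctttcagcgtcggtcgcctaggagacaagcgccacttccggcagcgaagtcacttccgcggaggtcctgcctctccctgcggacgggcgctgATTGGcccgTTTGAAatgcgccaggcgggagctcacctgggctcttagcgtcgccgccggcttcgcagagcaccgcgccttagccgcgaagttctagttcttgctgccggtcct
TOP2A, chr17:40417847-40418146, minus strand: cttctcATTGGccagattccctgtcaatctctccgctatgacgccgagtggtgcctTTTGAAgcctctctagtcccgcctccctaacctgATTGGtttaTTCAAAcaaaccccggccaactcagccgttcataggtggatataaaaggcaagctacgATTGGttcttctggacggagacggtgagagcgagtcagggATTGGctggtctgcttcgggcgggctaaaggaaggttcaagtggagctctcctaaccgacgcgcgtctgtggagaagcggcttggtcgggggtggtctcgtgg
The 6 windows differ in arrangement. KIF23 has 1 reverse CCAAT match at -64 and 1 CHR match at -55, and KIF14 has 1 CCAAT match at -22 and 1 reverse CHR match at 2. CENPF and TOP2A have 4 CCAAT matches each, and the CHR match of CENPF lies after the start, at 41. CENPE, whose BD to NBD difference was among the largest, has neither motif in its window.

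Most members had their lowest mean level in BD. Levels are CPM, counts scaled to a common library total, on the TMM scale, which divides each count by the normalised library total. BD held the lowest group mean for 30 members, NBD for 5 and control for 5, and the highest mean lay in BD for 3 members, in NBD for 23 and in control for 14. The summed level of the 40 members was 5023, 4802 and 4059 CPM in BD, 6060, 6934 and 6504 CPM in NBD, and 6737, 5631 and 5298 CPM in control. All 3 BD sums lay under all 6 others. In bulk RNA, fewer cells in G2 or mitosis and less RNA per such cell cannot be told apart. Set against each gene's own mean over the 9 libraries on the log2 scale, the median member stood at -0.17, -0.13 and -0.42 in BD, at -0.00, 0.21 and 0.24 in NBD, and at 0.27, 0.08 and -0.07 in control. BD replicate 3 was the lowest library for 22 members.

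**Figure D1:**
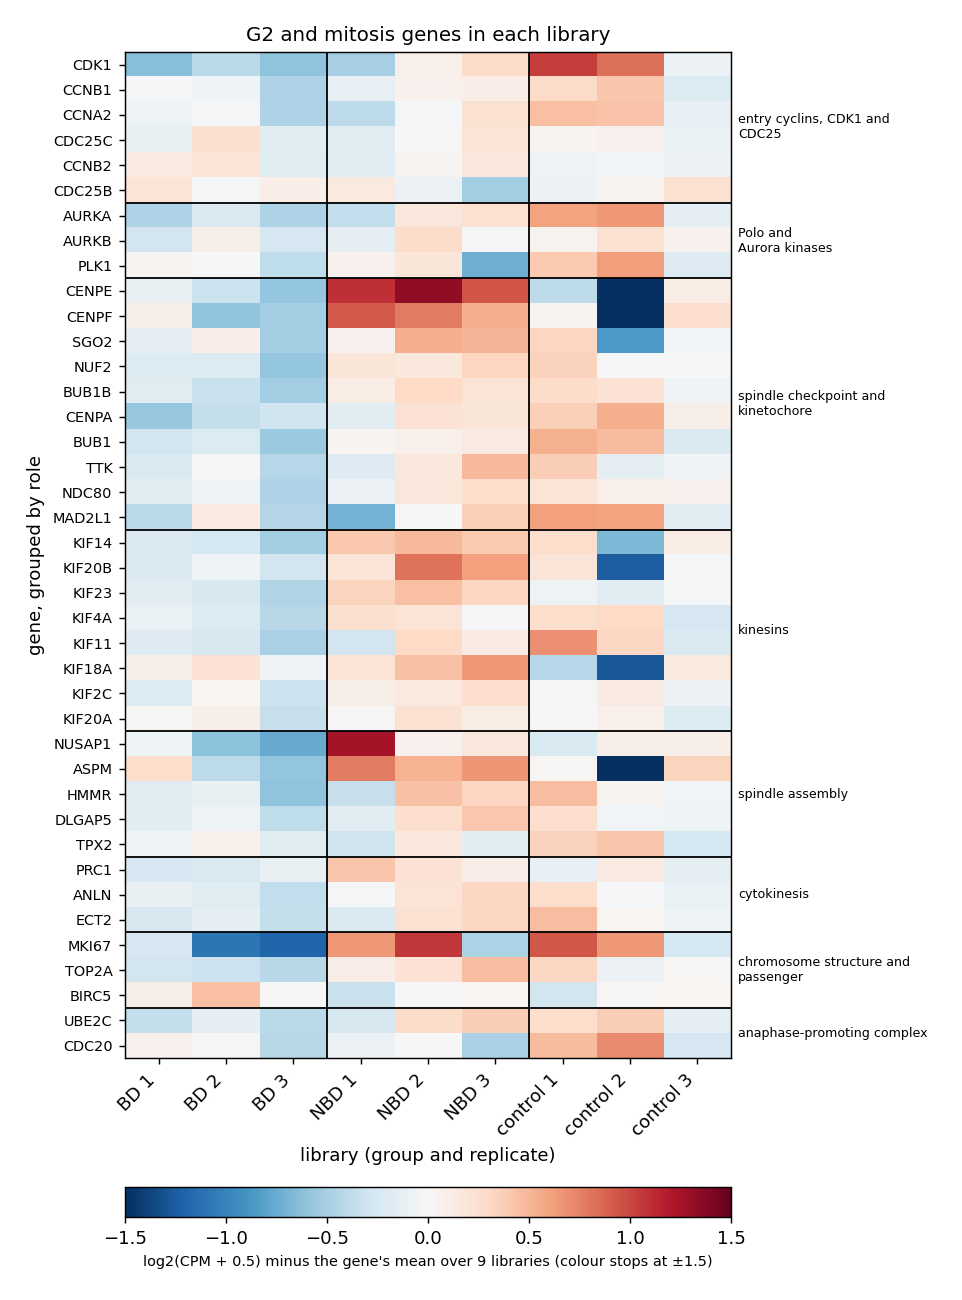
Level of each of the 40 genes (rows, grouped by role) in each of the 9 libraries (columns), as log2(CPM + 0.5) minus the gene's mean over the libraries, with red above and blue below that mean. BD columns are mostly blue, with a median of -0.42 in replicate 3, and control replicate 2 is dark blue for CENPE, CENPF and ASPM.

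In BD against NBD, 34 of 40 members had a log2 fold change below 0, where 51.6% of genes tested did. Their median over all 40 was -0.39, against -0.02 for all genes tested, and the range ran from -1.59 to 0.29. No member passed the test at an adjusted p under 0.05 (edgeR quasi-likelihood test, Benjamini-Hochberg), and over all genes 0.0177% did. The lowest adjusted p was 0.59, for KIF23, a kinesin of the midzone. At an unadjusted p under 0.05, 13 members were lower in BD and 0 higher, against backgrounds of 3.82% and 2.04% of genes tested. In 16 members all 3 BD libraries lay below all 3 NBD libraries, and in 0 members above, against backgrounds of 7.36% and 7.19%. The fold change stayed below 0 under all 22 alternatives for 31 of the 34, and CCNA2, CDC25C and MAD2L1 crossed 0 in at least 1. DESeq2 on the same counts called KIF23 alone, at -0.64 with an adjusted p of 0.0134, where it called 0.290% of genes lower. With no filter on low counts, CENPE, CENPF and MKI67 were called lower, against a background of 0.320%. In each comparison, that fit gave most members a standard error near 0.25, with little regard to their own spread. MKI67 had 0.26 there, against 0.43 in the main fit, and KIF23 had 0.25, against 0.16. With each library left out in turn, the median lay between -0.52, without NBD replicate 1, and -0.31, without BD replicate 3. In simulated counts for this comparison, the edgeR test recovered 1.49% of genes changed by 1.5-fold, 13.4% changed by 2-fold and 81.8% changed by 4-fold. The changed genes were drawn from those above a minimum mean level, which NUSAP1 does not reach. Counts were drawn independently for each gene, without shifts shared by genes within a library.

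**Figure D2:**
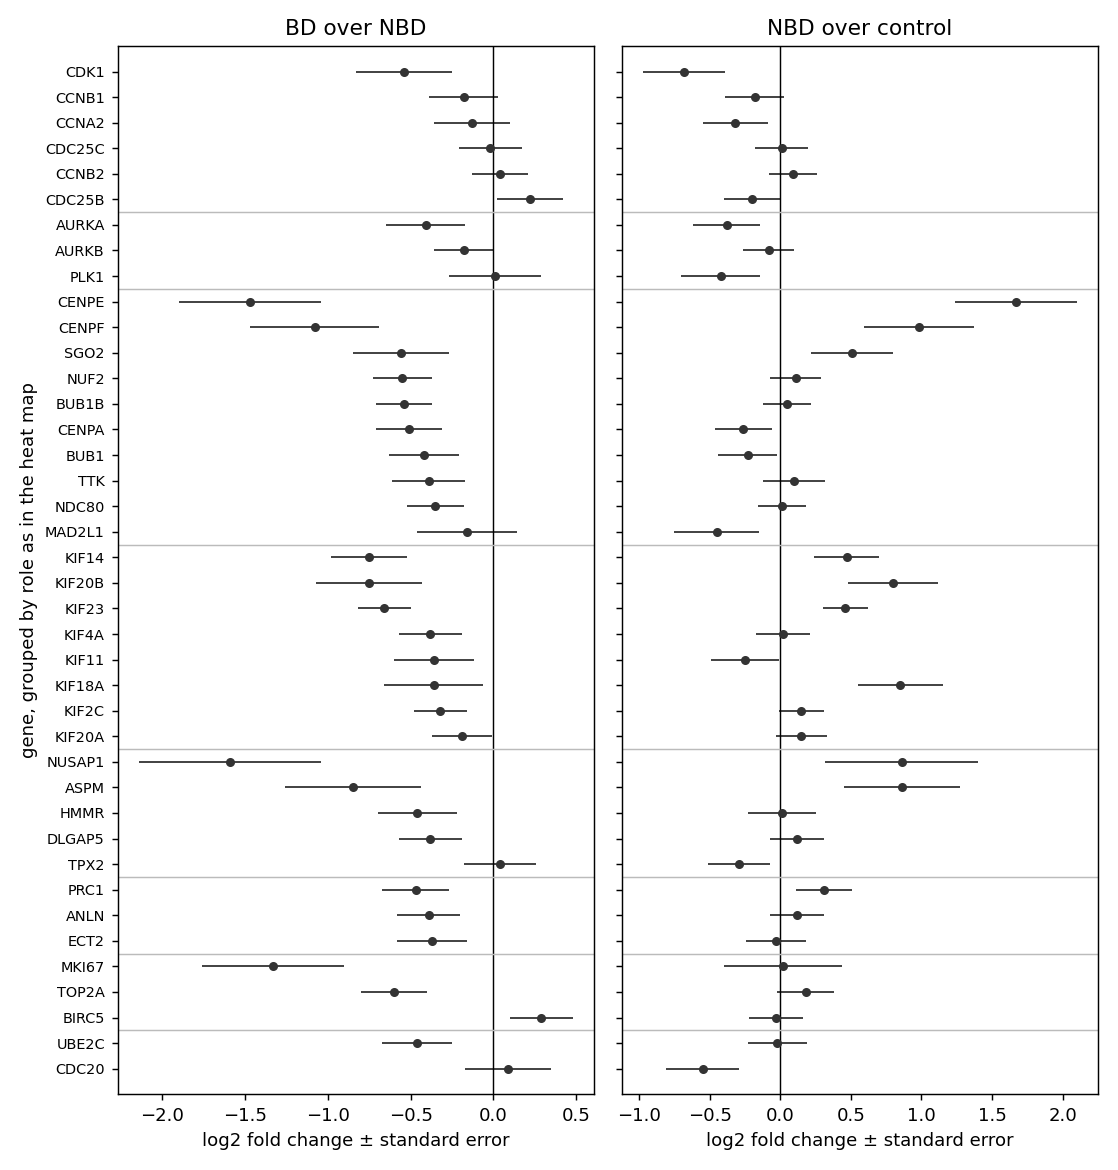
Log2 fold change with its standard error (horizontal axes) for each of the 40 genes (vertical axis), in BD over NBD on the left and NBD over control on the right, from the fit of all 9 libraries. In BD over NBD the points of all 10 checkpoint and kinetochore genes and all 8 kinesins lie below 0, and in NBD over control CENPE has the highest at 1.67.

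The regulators of mitotic entry differed least. The 6 genes of this role had a median log2 fold change of -0.08 in BD against NBD, and 4 were below 0. CDK1, the kinase itself, had 64.1, 75.3 and 65.5 CPM in BD, 70.2, 105 and 122 CPM in NBD, and 206, 177 and 94.0 CPM in control. BD replicate 2 stood above NBD replicate 1, while all 3 BD libraries were below all controls. Its log2 fold change was -0.54 ± 0.29 in BD against NBD (standard error, adjusted p = 0.816; 0.455 to 1 over the alternatives). CCNB1, the B-type cyclin with the highest level, had 252, 245 and 184 CPM in BD, 235, 267 and 273 CPM in NBD, and 312, 340 and 222 CPM in control. BD and NBD overlapped, at -0.18 ± 0.21. The cyclins CCNA2 and CCNB2 had -0.13 ± 0.23 and 0.04 ± 0.17, and the CDK-activating phosphatases CDC25B and CDC25C had 0.22 ± 0.20 and -0.02 ± 0.19. All 4 overlapped between BD and NBD.

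The Polo and Aurora kinases, which mature the centrosomes and correct attachments, had a median of -0.18. AURKA, the kinase of the spindle poles, had 90.0, 107 and 90.0 CPM in BD, 95.9, 139 and 145 CPM in NBD, and 188, 195 and 113 CPM in control. All BD libraries lay below all controls, but BD replicate 2 exceeded NBD replicate 1, and the log2 fold change in BD against NBD was -0.41 ± 0.24. AURKB, the kinase of the chromosomal passenger complex, had -0.18 ± 0.18, and PLK1, the Polo kinase, had 0.01 ± 0.28.

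The checkpoint and kinetochore genes had a median of -0.52, with 10 of 10 below 0 and 6 of 10 without overlap between BD and NBD. CENPE, a kinesin motor that brings chromosomes to the spindle equator, had 51.6, 44.4 and 37.1 CPM in BD, 120, 141 and 108 CPM in NBD, and 42.3, 12.9 and 60.5 CPM in control. The highest BD library was below the lowest NBD library, and every control library was below NBD too. The log2 fold change was -1.47 ± 0.43 in BD against NBD (adjusted p = 0.705; 3.07e-06 to 1 over the alternatives). CENPE had its lowest adjusted p in the fit with no filter. It was called in 2 of the 22 alternatives, the fit with no filter and the fit with replicate 3 as the sole control, which called 0.0478% of genes lower. CENPF, a large protein of the outer kinetochore, had 422, 261 and 276 CPM in BD, 756, 686 and 582 CPM in NBD, and 410, 140 and 476 CPM in control. NBD was again above every other library, with -1.08 ± 0.39 in BD against NBD. The standard errors draw on the spread in all 3 groups, control included. With BD and NBD libraries alone, edgeR gave -1.49 ± 0.19 for CENPE (adjusted p = 0.0528) and -1.09 ± 0.24 for CENPF (adjusted p = 0.325). The standard error also fell in some other members, as in ASPM (0.24, against 0.41) and KIF20B (0.19, against 0.32). It moved little in others, as in KIF23 (0.16 in both fits) and MKI67 (0.39, against 0.43). Smaller differences without overlap were those of NUF2 (-0.55 ± 0.18), a subunit of the NDC80 complex, the checkpoint kinases BUB1B (-0.54 ± 0.17) and BUB1 (-0.42 ± 0.21), and CENPA (-0.51 ± 0.20), the histone that marks centromeres. The groups overlapped for SGO2, a protector of centromeric cohesion, at -0.56 ± 0.29. They also overlapped for the checkpoint kinase TTK (-0.39 ± 0.22), the microtubule-binding NDC80 (-0.35 ± 0.17) and the checkpoint protein MAD2L1 (-0.16 ± 0.30).

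Kinesins move along microtubules and shape the spindle. Their median was -0.37, with 8 of 8 below 0 and 5 without overlap. KIF23 had 152, 144 and 125 CPM in BD, 216, 234 and 214 CPM in NBD, and 163, 153 and 167 CPM in control. Each group was tight, NBD lay above the other 6 libraries, and the log2 fold change in BD against NBD was -0.66 ± 0.16 (adjusted p = 0.59; 0.0134 to 1 over the alternatives). KIF14, which acts with citron kinase in cytokinesis, had 87.1, 84.3 and 70.5 CPM in BD, 134, 142 and 132 CPM in NBD, and 122, 63.0 and 109 CPM in control. The NBD libraries lay close together and above both other groups, at -0.75 ± 0.23 in BD against NBD. KIF20B, a motor of cytokinesis, had -0.75 ± 0.32, the chromokinesin KIF4A -0.38 ± 0.19 and the microtubule depolymerase KIF2C -0.32 ± 0.16, all without overlap. KIF11, which pushes the spindle poles apart, had -0.36 ± 0.24, KIF18A, which dampens chromosome movements, -0.36 ± 0.30, and KIF20A, which carries the passenger complex to the midzone, -0.19 ± 0.18, with overlap.

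**Figure D3:**
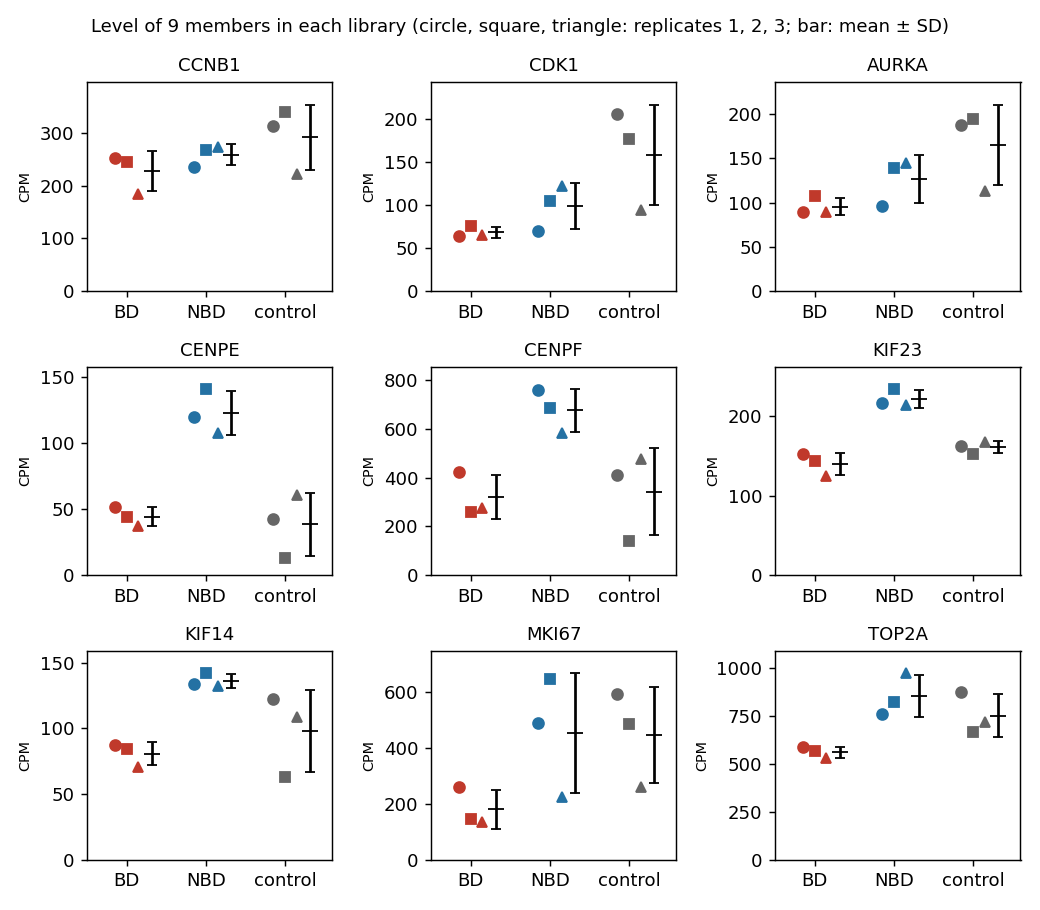
Level in CPM (vertical axes, linear, from 0) of 9 of the 40 genes in the BD, NBD and control libraries (horizontal axes), with the mean ± SD of n = 3 beside the points. CENPE, CENPF, KIF23 and KIF14 have all NBD libraries above the other 6, whereas CDK1 and AURKA are highest in control replicates 1 and 2.

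Spindle assembly factors had a median of -0.46, with 4 of 5 below 0. TPX2, the activator of AURKA, had 278, 307 and 257 CPM in BD, 236, 326 and 258 CPM in NBD, and 371, 389 and 243 CPM in control. All 3 BD libraries lay inside the NBD range, at 0.04 ± 0.22. ASPM, a spindle pole protein, had 247, 158 and 138 CPM in BD, 355, 297 and 327 CPM in NBD, and 209, 68.6 and 261 CPM in control. NBD lay above all others, at -0.85 ± 0.41 in BD against NBD, or -0.87 ± 0.24 with BD and NBD libraries alone. HMMR, a microtubule-binding hyaluronan receptor, had -0.46 ± 0.24 and DLGAP5, a kinetochore fibre protein, -0.38 ± 0.19, both with overlap. NUSAP1, a microtubule bundler, was counted at 25, 11 and 10 reads in BD, 78, 24 and 28 in NBD, and 14, 18 and 27 in control. Its fold change of -1.59 ± 0.55 was the largest of the set but rests on these few reads, and it was -0.92 without NBD replicate 1 and -2.10 without BD replicate 1. In GENCODE 29, 62.2% of its exon bases are shared on the same strand with AC087721.2, which was listed at 0 in all 9 libraries, so its level is uncertain.

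All 3 cytokinesis genes were below 0 in BD against NBD, with a median of -0.39. ANLN, the actin-binding anillin of the contractile ring, had 364, 347 and 305 CPM in BD, 389, 454 and 489 CPM in NBD, and 473, 388 and 367 CPM in control. BD was below every other library, at -0.39 ± 0.19 against NBD. PRC1, which bundles midzone microtubules, had 8.54, 8.72 and 9.51 CPM in BD, 14, 12 and 11.1 CPM in NBD, and 9.40, 11.3 and 9.30 CPM in control. BD was below all NBD libraries, at -0.47 ± 0.20. PRC1 shares 57.6% of its exon bases with AC068831.7, a gene on the same strand with 55 to 519 reads per library, so its level is uncertain as well. ECT2, the exchange factor that switches on RhoA at the cleavage site, had -0.37 ± 0.21, with overlap.

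The genes of chromosome structure and the passenger complex had a median of -0.60 and split by gene. TOP2A, the topoisomerase that untangles sister chromatids, had 586, 566 and 531 CPM in BD, 761, 824 and 973 CPM in NBD, and 876, 664 and 717 CPM in control. BD lay below all 6 other libraries, at -0.60 ± 0.20 against NBD (adjusted p = 0.814; 0.194 to 1 over the alternatives). MKI67, the Ki-67 protein that coats mitotic chromosomes, had 260, 146 and 135 CPM in BD, 488, 646 and 224 CPM in NBD, and 591, 486 and 258 CPM in control. NBD replicate 3 and control replicate 3 lay within the BD range, and the log2 fold change in BD against NBD was -1.33 ± 0.43 (adjusted p = 0.798; 0.000474 to 1 over the alternatives). The lowest of these adjusted p-values came from the fit with no filter. BIRC5, the survivin subunit of the passenger complex, had the highest fold change of the set, 0.29 ± 0.19, with overlap.

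Of the anaphase-promoting complex genes, CDC20, its activator, had 121, 118 and 86.7 CPM in BD, 109, 115 and 82.5 CPM in NBD, and 162, 190 and 97.2 CPM in control. BD and NBD overlapped almost fully, at 0.09 ± 0.26. UBE2C, its ubiquitin-conjugating enzyme, had 60.9, 70.8 and 58.8 CPM in BD, 66.1, 94.8 and 101 CPM in NBD, and 94.2, 101 and 71.4 CPM in control. All BD libraries lay below all controls, and BD replicate 2 exceeded NBD replicate 1, at -0.46 ± 0.21 against NBD.

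Per length, the members spanned a wide range of levels. In mean CPM per kb of all annotated exon bases over all 9 libraries, TOP2A had 112, CCNB1 101, TPX2 82.2, ANLN 66.1 and UBE2C 62.1. At the low end stood SGO2 at 6.34, CDC25C at 5.94, PRC1 at 1.89 and NUSAP1 at 0.362. Per kb of the longest transcript instead, the order changed, with UBE2C at 87.4, ANLN at 83 and TPX2 at 82.2.

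In BD against control, 33 members were below 0, where 48.1% of genes tested were, with a median log2 fold change of -0.32, against 0.03 for all genes tested. No member was called, and the background was 0%. The lowest adjusted p was 0.333. At an unadjusted p under 0.05, 9 members were lower and 0 higher, against backgrounds of 9.06% and 4.73% of genes tested. In 13 members BD lay below all controls without overlap, and in 0 above, against backgrounds of 7.72% and 8.05%. The largest differences were MKI67 at -1.30 ± 0.43, CDK1 at -1.22 ± 0.29, AURKA at -0.79 ± 0.24 and CENPA at -0.77 ± 0.20. DESeq2 called CDK1 at -1.23 (adjusted p = 0.0214) and CENPA at -0.77 (adjusted p = 0.0489), where it called 0.922% of genes lower. The fit with no filter called AURKA, CDK1 and MKI67 lower, against a background of 1.86%.

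The control libraries were not alike, and the calls against control depended on which of them were used. Control replicates 1 and 2 lay apart from all other libraries in some values. The basal keratin KRT15 had 27.1 and 27.3 CPM in them and 285 to 446 CPM in each other library. Mitochondrial rRNA took 12.3% and 11.9% of their counts, against 17.3% or more elsewhere. CDK1 had 206 and 177 CPM in control replicates 1 and 2 and 94.0 CPM in replicate 3, and AURKA and CDC20 were likewise lowest in replicate 3. Without control replicate 3, the controls were replicates 1 and 2 alone. In that fit, edgeR called 10.5% of 17755 genes lower in BD than in control, among them 8 members. These were CDK1 (-1.48, adjusted p = 0.0015), MKI67 (-1.57, 0.0154), AURKA (-0.99, 0.00669), CENPA (-0.87, 0.0103), BUB1 (-0.84, 0.00601), KIF11 (-0.81, 0.019), CDC20 (-0.69, 0.0359) and BUB1B (-0.58, 0.0315). KIF18A was called higher, at 0.89 (adjusted p = 0.0286), where 13.8% of genes were called higher. With replicate 3 as the sole control, its spread taken from BD and NBD, the median was -0.16, and CDC20 turned to 0.15.

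In NBD against control the members were spread around 0. Of 40 members, 24 were above and 16 below 0, against 53.3% and 46.7% of genes tested, with a median of 0.02, against 0.04 for all genes tested, and 0 were called, where the background was 0%. At an unadjusted p under 0.05, 5 members were higher in NBD and 1 lower, against backgrounds of 4.05% and 5.08%. All NBD libraries lay above all controls for CENPE, CENPF, KIF14, KIF18A, KIF23 and ASPM, 6 members, and below for 0, against backgrounds of 4.67% and 3.75%. CENPE had 1.67 ± 0.43, CENPF 0.98 ± 0.39, KIF18A 0.85 ± 0.30 and KIF23 0.46 ± 0.16, each with an adjusted p of 0.539. CDK1 lay on the other side, at -0.68 ± 0.29, and CDC20 at -0.55 ± 0.26. DESeq2 called 0 members, where it called 0.106% of genes lower and 0.0709% higher, and the fit with no filter called CENPE, CENPF and KIF18A higher, against a background of 0.712%. Without control replicate 3, CENPE (2.17, adjusted p = 0.00516), KIF18A (1.25, 0.00851) and CENPF (1.31, 0.0425) were called higher and CDK1 (-0.93, 0.0183) and CDC20 (-0.77, 0.0292) lower, against backgrounds of 11.6% and 6.56%. With replicate 3 as the sole control, the median was 0.24, and CDK1 and CDC20 turned to 0.07 and 0.06. The 3 comparisons share libraries in pairs and are given side by side for that reason.

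Several members with large differences have long transcripts or a low GC content, and the libraries differed along both. Of members whose longest GENCODE 29 transcript reaches 7 kb, 5 in all, the median log2 fold change was -1.08 in BD against NBD, against -0.15 for the 1730 genes tested of that length, and 0.86 in NBD against control, against -0.00. Across the 40 members, Spearman's rho of the BD to NBD fold change was 0.52 with GC content and -0.42 with length, and across 15623 genes tested it was 0.37 and -0.09. The points share the same libraries, so these are descriptions. Below 38% GC, 7 members had a median of -0.56, against -0.24 for 1369 genes, and at 50% or more, 7 members had 0.01, against 0.14 for 6610 genes.

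A trend along GC content also separated a pair of control libraries. Control replicate 2 against control replicate 1 stood at -1.67 for CENPE, -1.60 for ASPM, -1.55 for CENPF, -1.44 for KIF20B and -1.19 for SGO2, as log2 ratios of CPM + 0.5, and rho with GC content was 0.85 across members and 0.53 across all genes. Below 38% GC, this ratio had a median of -1.19 over 7 members and -0.27 over 1369 genes. It was -0.28 for MKI67, -0.08 for KIF23 and 0.31 for NUSAP1, members whose BD to NBD fold change was below 0. The trend removed next was fitted over all genes, and no trend among the members alone was fitted. With the all-gene trend along GC content removed from each library, the median of members was -0.30 in BD against NBD. In that fit 35 were below 0, with CENPE at -1.24 and KIF20B at -0.47. This setting was chosen after seeing the data. With the trend along length removed instead, the median was -0.42. The part of GC content and length in the differences was not tested beyond these fits.

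**Figure D4:**
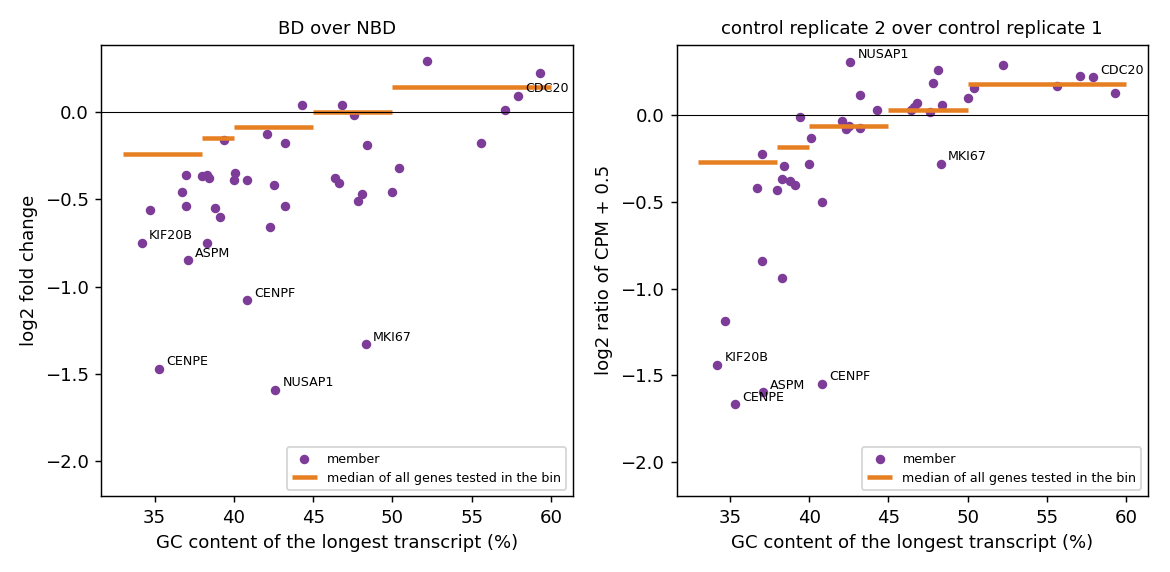
Difference of each of the 40 genes (points) against the GC content of its longest transcript in percent (horizontal axes), as the log2 fold change of BD over NBD on the left and as the log2 ratio of control replicate 2 to control replicate 1 on the right. Orange bars are medians of all genes tested in each GC bin, -0.24 below 38% GC on the left, and CENPE and ASPM lie far below them in both panels while MKI67 does so on the left.

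Mitochondrial rRNA took 22.3%, 17.3% and 21.1% of counts in BD, 27.3%, 26.8% and 28.9% in NBD, and 12.3%, 11.9% and 20.7% in control. With it removed before scaling, the median of the members in BD against NBD was -0.37. The 12 keratinocyte markers summed to 3556 to 4233 CPM in BD, 3263 to 3988 CPM in NBD and 3621 to 4961 CPM in control, and single markers differed in control replicates 1 and 2. KRT15, a basal keratin, had 27.1 and 27.3 CPM in these libraries and 285 to 446 CPM in each of the others. KRT5, its basal relative, had 1012 and 1241 CPM there and 323 to 720 CPM elsewhere, and the desmosomal DSP had 895 and 840 CPM there and 245 to 542 CPM elsewhere. Their part in the comparisons with control was not tested. Markers of fibroblasts summed to at most 5.24 CPM, of melanocytes to at most 1.93 CPM and of leukocytes to at most 0.414 CPM in any library. The 3 endothelial markers summed to 11.9 to 18.9 CPM in BD, 6.66 to 16.3 CPM in NBD and 1.85 to 16.8 CPM in control. CDH5 alone made up most of these sums outside control replicates 1 and 2, with 5.92 to 18.8 CPM, while PECAM1 had at most 0.197 CPM, with 0 in BD replicates 1 and 3 and control replicates 1 and 2, and VWF at most 1.53 CPM. Their part in the results was not tested.

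Other genes of the same programme lay nearer 0 in BD against NBD. Of 142 other mitosis genes, 94 were below 0, with a median of -0.13, 0 were called, and 15 were lower and 0 higher at an unadjusted p under 0.05. Over all genes tested, 51.6% were below 0, 0.0177% were called, and 3.82% were lower and 2.04% higher at that p. The smallest p belonged to CENPK, a kinetochore subunit, at -0.72 ± 0.21 (adjusted p = 0.722), and SPDL1, which recruits dynein to kinetochores, at -0.64 ± 0.19 (adjusted p = 0.744). All 7 other cytokinesis genes were below 0, with a median of -0.53. The 21 transcriptional regulators had a median of -0.02, with 11 below and 10 above 0 and a range from -0.46 to 0.67. FOXM1, an activator of the programme, had 119, 99.6 and 88.2 CPM in BD, 96.4, 95.8 and 51.7 CPM in NBD, and 133, 146 and 93.0 CPM in control. MYBL2, which encodes B-MYB, had 65.4, 66.0 and 46.4 CPM in BD, 53.0, 48.9 and 30.1 CPM in NBD, and 42.7, 54.8 and 50.2 CPM in control. Neither had a lower mean in BD than in NBD, but both were chosen from the regulators after their values were seen. The 52 S phase genes split into 23 below and 29 above 0, with a median of 0.03 and 0 called, and at an unadjusted p under 0.05, 1 was lower and 3 were higher. The smallest p was for the histone chaperone ASF1B, at 0.74 ± 0.17 (adjusted p = 0.5), and the licensing factor CDT1, at 0.64 ± 0.20 (adjusted p = 0.772).

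Against control, the other mitosis genes had a median of -0.14 in BD, with 92 of 142 below 0, and of 0.02 in NBD, with 77 above 0, and 0 were called in either. At an unadjusted p under 0.05, 22 were lower and 1 higher in BD, where 9.06% and 4.73% of all genes tested were, and 3 were lower and 4 higher in NBD, where 5.08% and 4.05% were. Over all genes tested, 48.1% were below 0 in BD and 53.3% above 0 in NBD. The smallest p in BD was for HJURP, the chaperone of CENPA, and GAS2L3, a cytoskeletal linker, both at -0.89 (adjusted p = 0.333). In NBD it was for CCNF, cyclin F, at -0.72, and ANAPC4, a subunit of the anaphase-promoting complex, at 0.61 (adjusted p = 0.539 each). S phase genes had medians of -0.06 in BD and -0.09 in NBD, with 0 called, and at that p 7 were lower and 3 higher in BD and 5 lower and 0 higher in NBD. ORC6, of the origin recognition complex, had -0.78 in BD and -0.60 in NBD. WDR76 had 0.61 in BD, and RFC2, a clamp loader subunit, -0.68 in NBD (adjusted p from 0.333 to 0.539).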

How the data were processed

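The values are read counts per gene, raw as deposited by the authors, from rRNA-depleted paired-end libraries made with a stranded kit, per the labels' protocols. FastQC 0.74, Trimmomatic 0.39, STAR 2.7.11b and featureCounts with GRCh38 are named in the submitters' processing notes, and no source used here gives the annotation release or the strand setting of the counting. The protocol names a pair of RNA kits without saying which library used which. Symbols came from a gene name table (61458 IDs) and GENCODE 29 (54 more), and lengths, GC content and overlaps from GENCODE 29.

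Genes were kept by filterByExpr and scaled by TMM, and edgeR 4.0.16 (R 4.3.3) fitted all 9 libraries in one quasi-likelihood model with a term per group and 6 residual degrees of freedom. Two-sided p-values were adjusted by the Benjamini-Hochberg method over the 16921 genes tested, with calls at an adjusted p under 0.05. Members and gene lists were chosen with earlier results of these data known, so the counts of members are descriptions with no test over the list. Values in every library are given for the member with the highest mean and the member with the largest BD to NBD difference in each role, plus MKI67 and CCNB1, and for others chosen after their values were seen (ASPM, FOXM1, MYBL2). Of the other lists, the 2 genes with the smallest p are named.

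The alternatives were DESeq2 size factors, no filter, at least 1 CPM in 3 libraries, DESeq2 1.42.0, a block for the replicate number, limma-voom (limma 3.58.1), the 2 groups alone, each library left out, replicate 3 as the sole control, protein-coding genes alone, mitochondrial rRNA removed, and trends with length or, chosen after seeing the data, with GC content removed. The test was checked on simulated counts with 200 changed genes, drawn from genes above a minimum mean level, with no shifts shared between genes. Total counts ranged from 17128797 to 29512856 per library. Figures were drawn with matplotlib 3.10.9.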

Additional observations from a re-analysis of the deposited data

How the results depend on the processing

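Across all genes, BD against NBD had 3 calls in edgeR, and 131 with no filter, 58 with DESeq2, 5 with limma-voom, 5 with the 2 groups alone, 9 with control replicate 3 as the sole control, 0 with the length trend removed, and 0 to 16 with each library left out. BD against control had 0 calls, and 1162 with no filter, 167 with DESeq2, 1 with limma-voom and 0 to 4317 with each library left out. NBD against control had 0, and 594 with no filter, 30 with DESeq2 and 0 to 3228 with each library left out. Both upper ends came without control replicate 3. Members called numbered 0 in each comparison. In BD against NBD they numbered 3 with no filter, 1 with DESeq2 and 1 with control replicate 3 as the sole control. In BD against control they numbered 3 with no filter, 2 with DESeq2 and 0 to 9 with each library left out. In NBD against control they numbered 3 with no filter and 0 to 5 with each library left out. Medians of the members ran from -0.52 to -0.31 in BD against NBD, from -0.40 to -0.21 in BD against control and from -0.02 to 0.13 in NBD against control with each library left out, and with control replicate 3 as the sole control stood at -0.16 in BD against control and 0.24 in NBD against control. With the replicate number as a block, BD against NBD had 0 calls, also together with the length trend, and 0 members were called in any comparison. Deviations of same-numbered libraries correlated at 0.601, 0.0654 and 0.316 between BD and NBD, at 0.244, 0.0359 and 0.254 between BD and control, and at 0.0414, 0.424 and 0.372 between NBD and control. Different-numbered ones ran from -0.55 to 0.405, the highest being BD replicate 2 with NBD replicate 3, so pairing by number is not established.

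Fold changes of named members crossed 0 as follows, up to CDK1 at -0.68 in NBD against control. In BD against NBD, CDC20 was -0.05 with the GC trend removed and -0.04 to 0.23 with each library left out, where TPX2 was -0.06 to 0.19. In BD against control, with control replicate 3 as the sole control, CCNB1 was 0.03, CDC20 0.15, TPX2 0.20 and CENPE -0.45. With each library left out, CENPE was -0.22 to 0.69 and CENPF -0.48 to 0.23. CENPF was 0.06 with limma-voom, 0.04 with the length trend removed and 0.15 with that trend and the replicate block. In NBD against control, with control replicate 3 as the sole control, AURKA was 0.16, CCNB1 0.21, CDC20 0.06, CDK1 0.07, TPX2 0.16 and UBE2C 0.28. MKI67 was -0.03 with limma-voom, -0.00 with the length trend and replicate block and -0.32 to 0.35 with each library left out, and UBE2C was 0.02 with the GC trend removed and -0.14 to 0.15 with each library left out. The cause was not tested. With 3 libraries a group, the edgeR test recovered 16.4% of simulated 2-fold changes in BD against control and the same share in NBD against control. Of simulated 1.5-fold changes it recovered 0% in both. A missing call does not show that a member was at the same level.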
